A study of Mus musculus with 6 samples.

Results

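Laminins are large, cross-shaped glycoproteins of the basement membrane, the sheet of matrix on which an epithelium rests. Each molecule is put together inside the cell from an α, a β and a γ chain, and each chain is the product of its own gene. In airways, the laminin that holds the α3 and β3 chains fastens basal cells to the matrix through integrin α6β4 in hemidesmosomes, and laminins with the α5 chain line mature airway epithelium. Of 22910 genes on the array, 9 were laminin chain genes found by matching the RefSeq accession of each probe to a mouse gene. They were the α chain genes Lama2, Lama3, Lama4 and Lama5, the β chain genes Lamb1, Lamb2 and Lamb3, and the γ chain genes Lamc1 and Lamc3. The rule names the genes and uses no threshold on a measured value, though earlier results of these data were known when it was written. Laminin chain genes outside these 9 are not analysed here.

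The study asked how TGF-β1, a secreted growth factor, changes the airway epithelium to which cancer organoids attach. Mouse airway epithelial organoids from C57BL/6 lung were dissociated and grown as flat sheets, called 2D-MAOs, in wells that per the methods were coated with type I collagen. From day 3 to collection on day 7, 3 cultures received TGF-β1 and 3 control cultures did not. Both groups were kept in medium that lacked noggin, which blocks BMP ligands, and A83-01, which inhibits the TGF-β type I receptor, and no TGF-β1 concentration is named for the arrays. Per the methods the 3 cultures of a group were biological replicates, and the p-values measure the spread between these cultures. Total RNA of each culture was hybridised with 1 dye to 1 Agilent array. On a bulk sample like this, fewer cells of a type and less RNA per cell cannot be told apart.

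All values are quantile-normalised log2 signals, and all log2 fold changes are TGF-β1 minus control from limma fitted to every gene tested. A gene was called when it changed at least 2-fold with a Benjamini-Hochberg adjusted p under 0.05. Brightness depends on the probe, so the level of 1 gene is not set against that of another. On every array 55.0% to 59.0% of probes were well above background, and 3 arrays per group limited the precision. All 7 epithelial marker genes looked up (Epcam, Cdh1, Krt8, Krt18, Krt19, Cldn7 and Nkx2-1) were well above background on all 6 arrays. The fibroblast genes Col3a1, Pdgfrb, Lum and Tcf21 and the endothelial genes Cdh5, Kdr, Tek, Cldn5 and Emcn were not well above background on enough arrays to be tested. Other markers of cells outside the epithelium were well above background on all 6 arrays. They were Pdgfra, Dcn and Thy1 (fibroblast), Pecam1 and Egfl7 (endothelium), Acta2, Cnn1 and Tagln (smooth muscle), and Cd3e, Itgam, Cd68 and Csf1r (leukocyte).

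TGF-β1 replicate 3 stood apart from the other treated cultures. Over all genes tested, its Euclidean distance in log2 signal was 61.1 and 62.3 to TGF-β1 replicates 1 and 2, which were 32.3 apart. To the controls its distance was 54.4 to 60.9. It lay in slide row 2 together with control replicate 3, and the other 4 arrays lay in row 1. Values without it are therefore also given below for the laminin chains tested and for the lists of genes that work with laminins.

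No laminin chain gene passed the test for a change with TGF-β1. The largest differences were those of Lamb1, 2.71-fold, and Lama3, 2.23-fold, and these were also the only chains tested whose treated cultures all lay above all controls. Lamc1, Lama5, Lamb3 and Lamb2 differed by less than 1.4-fold, and Lama2, Lama4 and Lamc3 stayed near background on all 6 arrays. Of 14345 genes tested, limma called 171 (1.19%) as higher and 27 (0.188%) as lower, 1.38% in all, and of the 6 laminin chain genes tested 0 were called. Without the 2-fold threshold 2.04% of all genes passed, and again 0 of the 6. The median log2 fold change of the 6 was 0.37, and that of all genes tested was -0.03. Positive values were found for 5 of the 6 (45.8% of all genes), a difference of at least 2-fold upward for 2 (2.93% of all genes), and an unadjusted p under 0.05 for Lamb1, Lama3 and Lamc1, 3 of the 6 (22.2% of all genes). The methods' t-test, with a 2-fold threshold, called 2 chains (Lamb1 and Lama3) without adjustment, beside 2.17% of all genes called as higher, and 0 with adjustment. The count of genes called rested on TGF-β1 replicate 3. Without it, Lamb1 and Lama3 were both called, and 3.86% of all genes were called as higher. The same pair was called when arrays were weighted by their spread (4.14% of all genes called as higher) and in slide row 1 alone (4.37%), an alternative chosen after seeing the data.

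**Figure D1:**
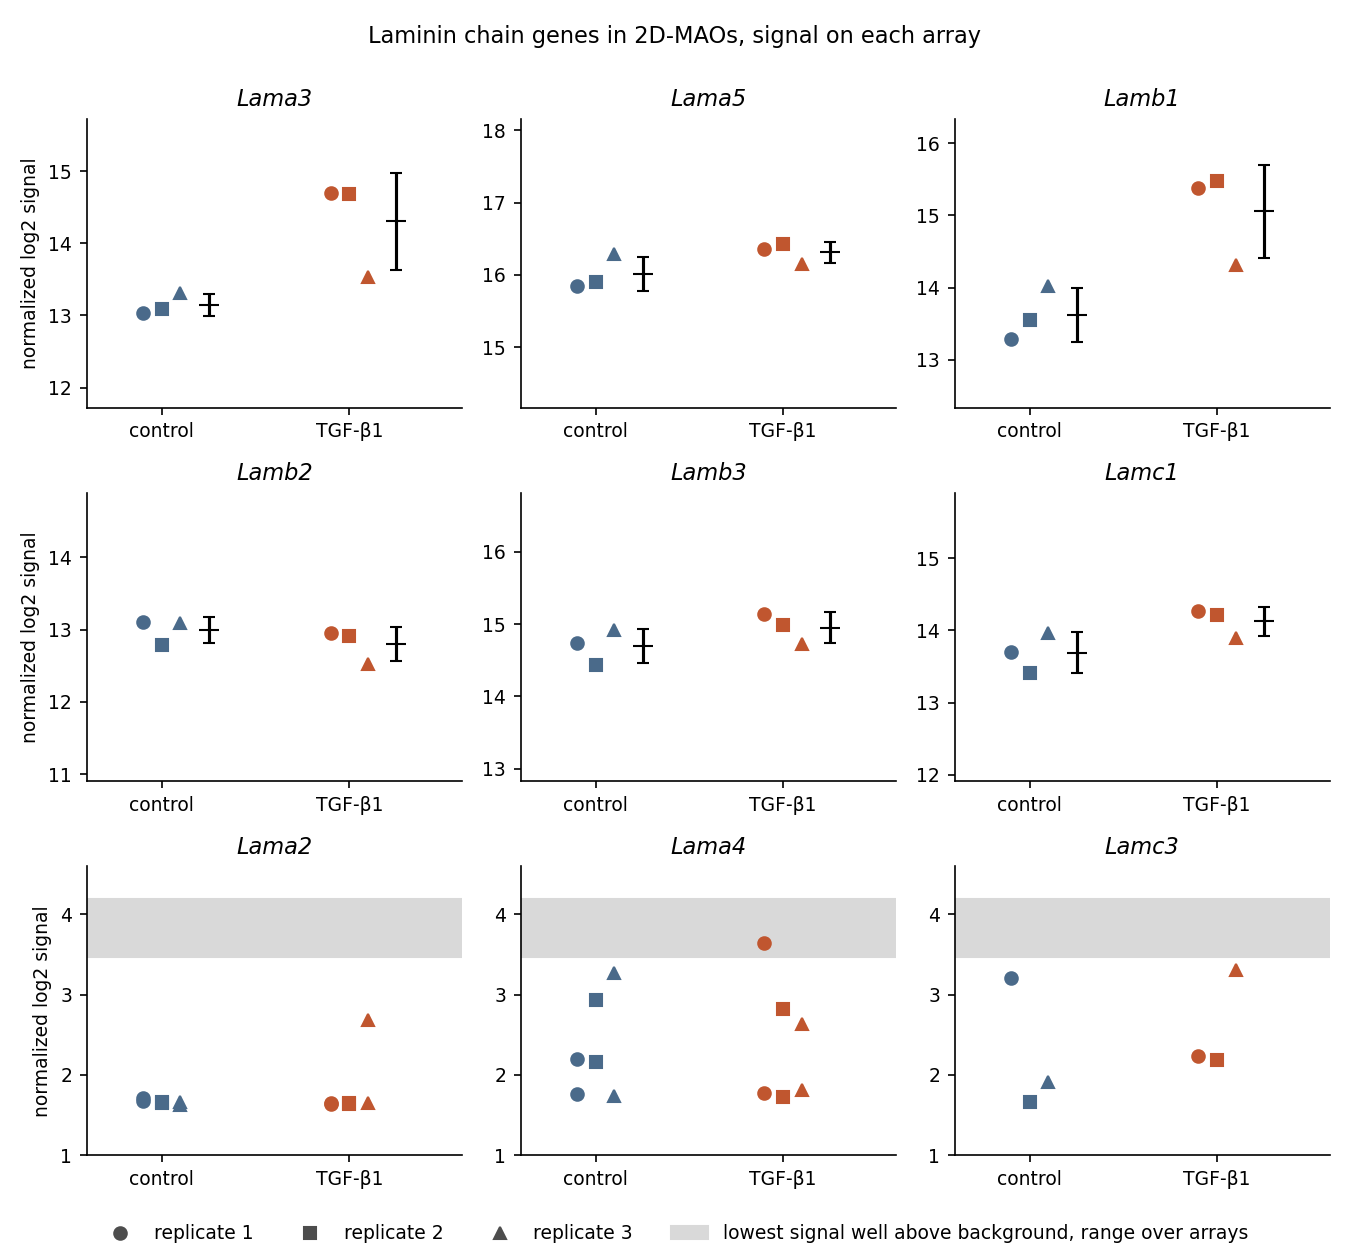
Quantile-normalised log2 signal of the 9 laminin chain genes on each array, with a separate vertical scale for each of the upper 6 genes. Symbols are cultures, bars are the mean ± SD of 3 cultures, and the lower 3 genes are shown with every probe against the grey band of the lowest signals well above background (3.47 to 4.19 across the arrays). Treated cultures of Lama3 and Lamb1 all lie above the controls, with replicate 3 nearest to them.

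Among the α chains, Lama3 encodes α3, the chain through which hemidesmosomes hold the matrix. Its log2 signal was 13.03, 13.09 and 13.32 in control replicates 1, 2 and 3. It was 14.70, 14.68 and 13.53 in TGF-β1 replicates 1, 2 and 3. The groups did not overlap, which held for 12.9% of all genes in this direction and 13.5% in the other, and replicate 3 lay only just above the highest control. The log2 fold change was 1.15 (SE 0.32, 95% interval 0.40 to 1.91), with a limma adjusted p of 0.124, and the exact two-sided permutation p was 0.1, the smallest that 3 against 3 arrays can give. A second Lama3 probe differed by 1.07. Leaving out treated replicate 3 gave a value of 1.54 (SE 0.13, limma adjusted p = 0.00374), 2.91-fold, and Lama3 was called.

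Lama5 encodes α5, the widespread α chain of mature epithelial basement membranes in the lung. Its log2 signal was 15.85, 15.89 and 16.29 in the controls and 16.36, 16.42 and 16.15 with TGF-β1. The groups overlapped, since control replicate 3 was brighter than treated replicate 3. The log2 fold change was 0.30 (95% interval -0.07 to 0.67), with a limma adjusted p of 0.297. Without treated replicate 3 it was 0.38 (adjusted p = 0.152 from limma). The interval lies below a 2-fold difference, and Lama5 was read by a single probe.

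The α chain genes Lama2, known from muscle and peripheral nerve, and Lama4, known from blood vessels, were not well above background. The same was true of Lamc3, a γ chain of restricted expression. Together these 3 genes had 5 probes, and 0 of 30 readings were well above background. Their log2 signals ran from 1.63 to 3.65. No fold change is given for them because neither group has a measured level.

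Among the β chains, Lamb1 encodes β1, which many tissues use. Its log2 signal was 13.29, 13.55 and 14.02 in the controls and 15.38, 15.48 and 14.31 in TGF-β1 replicates 1, 2 and 3. As for Lama3, treated replicates 1 and 2 were close together and well above every control, and replicate 3 was 0.29 above control replicate 3. The log2 fold change was 1.44 (SE 0.34, 95% interval 0.62 to 2.25), with a limma adjusted p of 0.0934 and an exact permutation p of 0.1. The other Lamb1 probes differed by 1.28 and 1.76, so all 3 probes gave a difference of more than 2-fold. Without treated replicate 3 the log2 fold change was 1.81 (SE 0.22, adjusted p = 0.00905 from limma), 3.50-fold, and Lamb1 was called.

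Lamb3 encodes β3, which pairs with α3. Its log2 signal was 14.73, 14.44 and 14.91 in the controls and 15.15, 14.98 and 14.72 with TGF-β1, and the groups overlapped. The log2 fold change was 0.25 (95% interval -0.15 to 0.66, limma adjusted p = 0.392). When the arrays were scaled to their 75th percentile, the value was -0.0065 and the median of all genes was -0.09, so that relative to this median Lamb3 stayed positive (0.09). A second Lamb3 probe differed by 0.35. Without treated replicate 3 the log2 fold change of the gene was 0.37 (limma adjusted p = 0.170).

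Lamb2 encodes β2, best known from the neuromuscular junction and the filter of the kidney. Its log2 signal was 13.11, 12.80 and 13.09 in the controls and 12.96, 12.91 and 12.53 with TGF-β1. The groups overlapped, and the lowest value was that of treated replicate 3. Its log2 fold change was -0.20 (95% interval -0.58 to 0.18, limma adjusted p = 0.475), the single negative value among the 6 chains tested. Without treated replicate 3 it was -0.06 (limma adjusted p = 0.772).

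Lamc1 encodes γ1, the γ chain of most laminins. Its log2 signal was 13.70, 13.40 and 13.97 in the controls and 14.27, 14.21 and 13.90 with TGF-β1. Treated replicates 1 and 2 lay above all controls, and replicate 3 lay below control replicate 3. The log2 fold change was 0.43 (95% interval 0.01 to 0.86), with a limma adjusted p of 0.219. The second Lamc1 probe differed by 0.24. Without treated replicate 3 the log2 fold change of the gene was 0.55 (limma adjusted p = 0.0866).

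**Figure D2:**
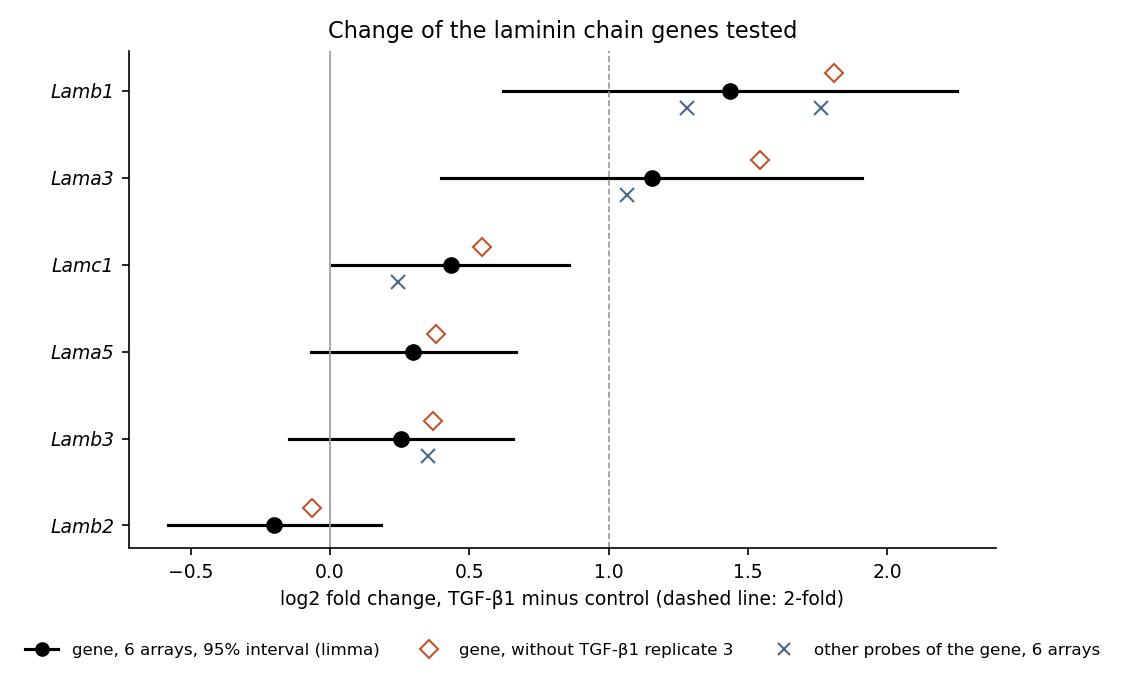
Log2 fold change of the 6 laminin chain genes tested, with the 95% interval from limma over 6 arrays. Open diamonds leave out TGF-β1 replicate 3 and crosses are further probes of the same gene, and the Lamb1 and Lama3 values lie beyond the dashed 2-fold line with and without that replicate.

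The promoters of the β chain genes are shown because they include the highest and the lowest log2 fold change of the 6 chains tested. Each line gives the 250 bases before the RefSeq transcription start in the mouse build GRCm38.p6, 5′ to 3′ on the gene's strand. Capitals mark matches, on either strand, to CAGAC (the Smad box, bound by Smad proteins that carry the TGF-β signal) and to GGGCGG (the GC box, bound by Sp1). Lamb1 starts after chr12:31265043-31265292 (plus strand), Lamb2 after chr9:108479612-108479861 (plus strand) and Lamb3 after chr1:193301744-193301993 (plus strand, the first of its starts in the table).
Lamb1: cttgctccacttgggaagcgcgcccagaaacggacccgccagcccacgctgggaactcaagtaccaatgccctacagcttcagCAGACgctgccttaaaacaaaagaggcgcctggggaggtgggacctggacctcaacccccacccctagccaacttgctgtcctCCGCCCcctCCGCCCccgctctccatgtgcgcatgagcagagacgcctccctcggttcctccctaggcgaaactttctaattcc
Lamb2: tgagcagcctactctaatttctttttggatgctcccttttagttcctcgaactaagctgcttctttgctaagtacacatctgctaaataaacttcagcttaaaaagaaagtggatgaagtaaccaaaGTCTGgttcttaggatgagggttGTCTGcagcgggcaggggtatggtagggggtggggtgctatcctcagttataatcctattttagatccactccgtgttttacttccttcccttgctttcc
Lamb3: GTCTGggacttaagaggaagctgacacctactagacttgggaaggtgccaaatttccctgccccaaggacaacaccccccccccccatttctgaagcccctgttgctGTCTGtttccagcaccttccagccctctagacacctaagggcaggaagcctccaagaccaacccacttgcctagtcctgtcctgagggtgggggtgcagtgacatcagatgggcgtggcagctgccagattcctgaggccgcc
The Lamb1 window held 1 Smad box and 2 GC boxes, and 62.0% of its bases were G or C. The windows of Lamb2 and Lamb3 each held 2 Smad boxes and 0 GC boxes, with a G and C content of 43.6% and 58.8%. A Smad box was present in 42.2% and a GC box in 32.7% of all 32851 promoter windows, so neither motif is rare. The AP-1 motif TGANTCA, present in 6.75% of windows, and the palindrome GTCTAGAC, present in 0.167%, were found in none of these windows nor in those of Lama2 and Lama5. These matches describe the letters only.

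Chains can be compared through the ratio of their signals on the same array, in which a shift of the whole array cancels. Of 9 pairs looked at, 7 had both chains measured. They were partners that assemble together or alternatives that take the same place in the trimer. The ratio itself depends on the brightness of both probes, so only its change between groups is meaningful. The log2 ratio of Lamb1 to Lamb2 was 0.18, 0.75 and 0.93 in the controls and 2.42, 2.57 and 1.79 with TGF-β1. All treated cultures, replicate 3 included, lay above all controls, and the mean went from 0.62 ± 0.39 (SD, n = 3) without to 2.26 ± 0.41 (SD, n = 3) with treatment. The ratio of Lamb1 to Lamb2 signal thus differed 3.11-fold, with an exact permutation p of 0.1.

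The log2 ratio of Lama3 to its partner Lamb3 was -1.70, -1.35 and -1.60 in the controls and -0.45, -0.30 and -1.20 with TGF-β1, a difference of 0.90. Treated replicate 3 was close to the controls, and replicates 1 and 2 were further from them. The ratio of Lamb1 to Lamc1, the chains shared by many laminins, differed by 1.00, and that of Lamb3 to Lamb1 by -1.18. The ratio of Lama5 to Lama3 differed by -0.86. For the partners of α5, the ratio of Lama5 to Lamb1 differed by -1.14 and that of Lama5 to Lamb2 by 0.50. In all 7 pairs measured the treated cultures lay on 1 side of the controls, which held for 27.6% of all pairs of genes tested. Each exact two-sided permutation p was 0.1, the smallest that 3 against 3 arrays can give, and it was 0.1 after adjustment over the 7 pairs. The pairs are not independent, because 6 of the 7 contain Lamb1 or Lama3. All 7 kept their direction without TGF-β1 replicate 3, where the values ran from -1.44 to 1.87.

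**Figure D3:**
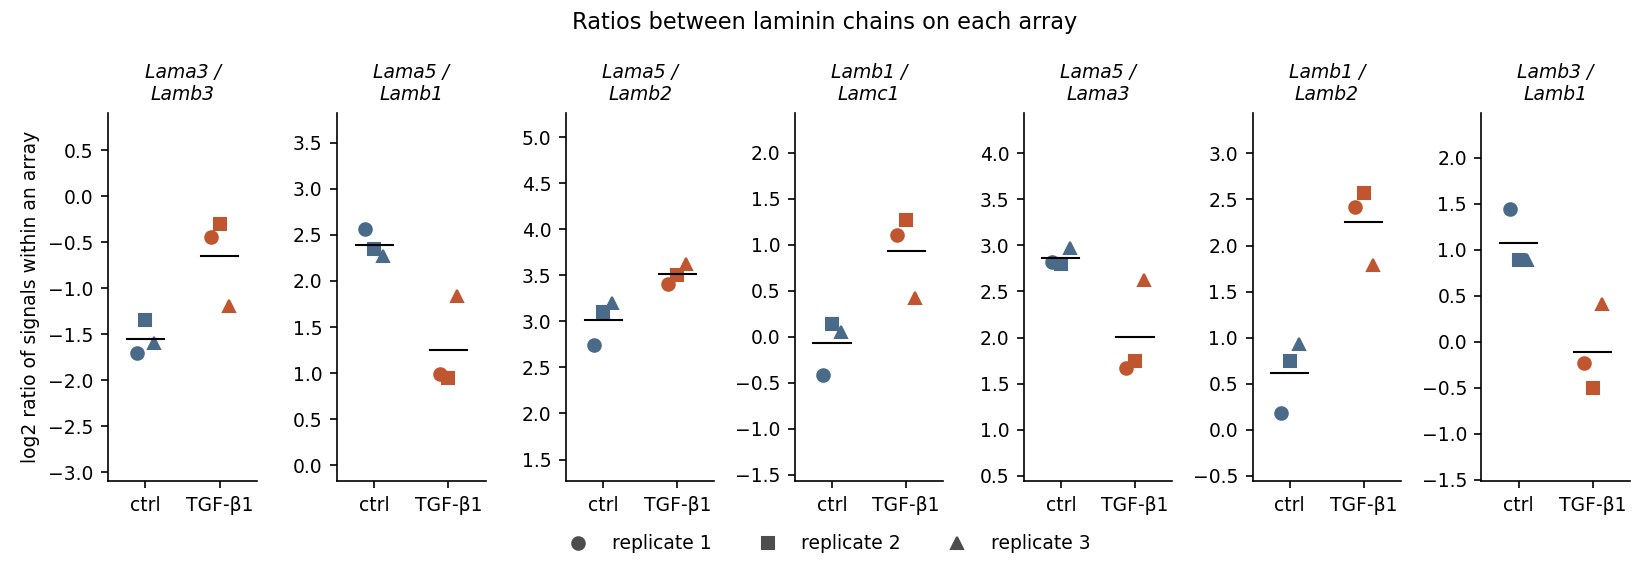
Log2 ratio of 2 laminin chain signals on each array, control against TGF-β1, for the 7 pairs measured, with lines at the group means and an equal span on each vertical axis. In each pair the 3 treated cultures lie on 1 side of the 3 controls, with Lamb1 to Lamb2 showing the widest gap between the means.

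How far TGF-β1 replicate 3 lay from the other treated cultures varied from gene to gene. The genes given here were chosen after their values were seen, and no difference between groups of genes was tested. For Lamb1 its signal exceeded the control mean by 0.69, where replicates 1 and 2 exceeded it by 1.81 on average. For Lama3 the values were 0.38 and 1.54. The basal cell keratin Krt5 was 0.31 above the control mean in replicate 3 and 1.90 in the others. Krt14, its partner in the keratin filament, was 0.82 above in replicate 3 and 1.92 in the others. Among TGF-β response genes the gap varied in size and direction. Pmepa1, a feedback inhibitor of the pathway, was 1.12 above the control mean in replicate 3 and 1.40 in the others. The inhibitory Smad gene Smad7 was 0.97 above in replicate 3 and 0.75 above in the others. Ccn2, a matricellular protein, was 1.61 above in replicate 3 and 2.35 in the others, and Tgfbi, another matrix protein, was 3.97 and 4.88 above. Of 7 TGF-β response genes, all 7 lay above the controls in every treated culture (12.9% of all genes) and 4 were called as higher (1.19% of all genes), namely Tgfbi, Ltbp2, Ccn2 and Pmepa1.

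Of 5 basal cell markers, 4 had a positive log2 fold change, as Lama3 and Lamb1 did, and Krt15 had a negative one (-1.06). The summed linear signal over 5 genes (Krt5, Trp63, Krt14, Krt15 and Ngfr) ran from 44458 to 60724 in the controls and from 56660 to 148505 with TGF-β1, so that the groups overlapped, and all 5 genes were well above background on all 6 arrays. Of the 5, limma called 0, beside 1.38% of all genes. An unadjusted p under 0.05 was found for 3 (22.2% of all genes), the methods' t-test called 1 without adjustment (2.17% of all genes as higher), and 3 were called as higher without treated replicate 3 (3.86%). A second Trp63 probe, dimmer than the one that stands for the gene (0.18), differed by 1.13 (limma adjusted p over kept probes 0.0313). Krt15, another basal keratin, was 2.69 below the control mean in replicate 3 and 0.24 below it in the others. The summed linear signal of the fibroblast markers tested, 5 of 9, ran from 567 to 638 in the controls and from 698 to 2700 with TGF-β1. Dcn, read by the brightest of these probes, made up most of this sum on every array. It differed by 1.00 (limma adjusted p = 0.273), with a log2 signal of 8.98 in both treated replicate 3 and control replicate 1. Thy1 differed by 2.47 and Pdgfra by 0.21 without passing the test (limma adjusted p of 0.176 and 0.484). Col1a1 was at least 2.59-fold and Col1a2 at least 2.38-fold higher with TGF-β1 (limma adjusted p of 0.0091 and 0.0162). On the controls neither was well above background. Both passed the filter only through the treated arrays, so their p is not independent of the filter. The part of these cell types in the laminin chain values was not tested.

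**Figure D4:**
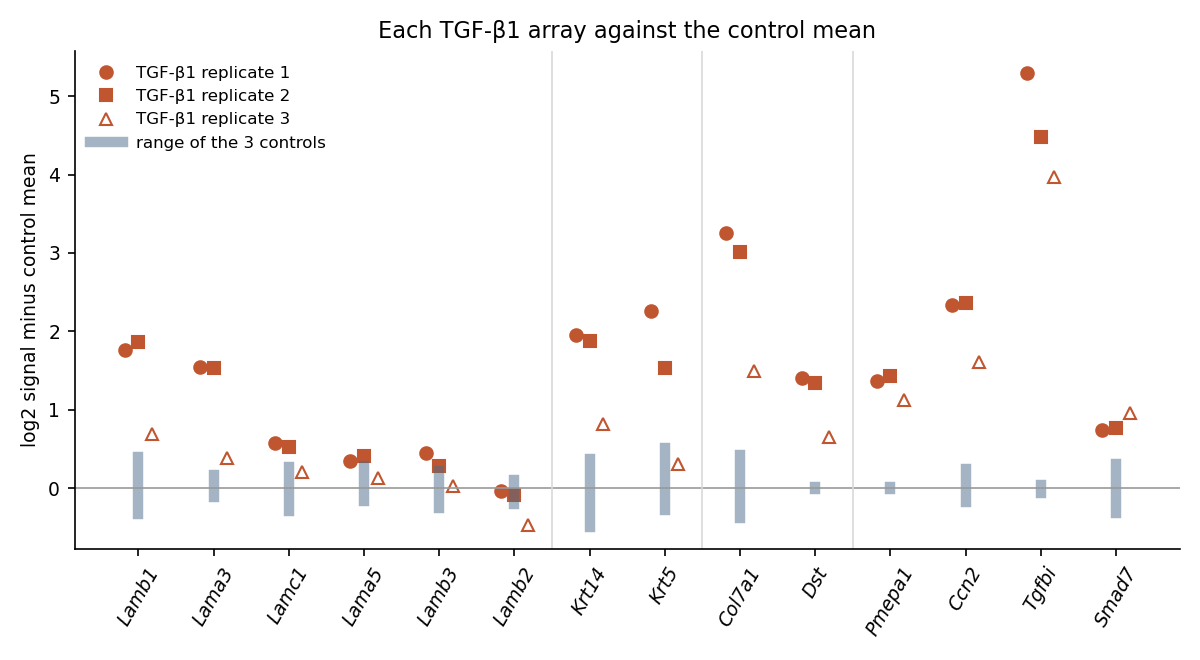
Log2 signal of each TGF-β1 culture minus the mean of the 3 controls for laminin chain genes, basal keratins, hemidesmosomal genes and TGF-β response genes, separated by vertical lines. Grey-blue bars span the 3 controls. The open triangle, TGF-β1 replicate 3, lies below the other treated cultures for every gene shown except Smad7, where it lies above them.

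The lists of genes that work with laminins were examined by counts. Of 9 hemidesmosomal anchorage genes, which tie keratin filaments through integrin α6β4 to the matrix, all 9 had a positive log2 fold change and 2 were called, beside 1.19% of all genes called as higher. Col7a1, the anchoring fibril collagen beneath hemidesmosomes, rose by 2.59 on the log2 scale (limma adjusted p = 0.0484). Dst, which encodes the plakin BPAG1, rose by 1.14 (limma adjusted p = 0.0484). Col17a1, a transmembrane collagen of hemidesmosomes, differed by 2.13 without passing the test (limma adjusted p = 0.167). Krt14 differed by 1.55, Krt5 by 1.37 and Itga6 by 0.92, and these did not pass it either. The median of the list was 1.14, and without treated replicate 3 it was 1.37 with 8 of 9 genes called as higher, beside 3.86% of all genes.

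Of 25 other basement membrane genes, 21 were tested and 1 was called as higher, beside 1.19% of all genes. Sparc, a collagen-binding matricellular protein, rose by 2.35 on the log2 scale, from 13.02 to 15.37 (limma adjusted p = 0.0322). Col4a1, a chain of the type IV collagen network that lies beside the laminin network, was well above background on all treated and on 0 control arrays. It was at least 2.17-fold higher (limma adjusted p = 0.111). Col4a1 passed the filter only through the treated arrays, so this p is not independent of the filter. Hspg2, which encodes perlecan, differed by 1.80, and the fibulin genes Fbln1 and Fbln2 by 1.38 and 1.34, without passing the test. For Nid1, whose product links laminin γ1 to type IV collagen, the value was -0.35 (limma adjusted p = 0.466). The median of the 21 genes was 0.64, and 7 were called as higher without treated replicate 3, beside 3.86% of all genes.

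All 11 laminin receptor genes were tested, and limma called 0 (1.38% of all genes were called), with a median of 0.44. An unadjusted p under 0.05 was found for 5 (22.2% of all genes), and the methods' t-test called 0. Those with the largest differences were Itga2 (0.93), Itga6 (0.92), Itgb4 (0.79) and Itgb1 (0.59), which encode subunits of integrins that bind collagens or laminins. Dag1, the gene of dystroglycan, differed by 0.02 (limma adjusted p = 0.933). Of 12 genes for enzymes that put the laminin-binding sugar on dystroglycan, limma called 0 with or without treated replicate 3, 3 had an unadjusted p under 0.05 (22.2% of all genes), the methods' t-test called 0, and the median was 0.15. With that replicate left out, 3 of the 11 receptor genes were called as higher, beside 3.86% of all genes.

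Of 10 genes for proteases known to cleave laminin chains or act on their activators, 7 were tested and limma called 0, beside 1.38% of all genes. An unadjusted p under 0.05 was found for 3 (22.2% of all genes), and the methods' t-test called 1 without adjustment (2.17% of all genes as higher). Bmp1, a protease that trims laminin chains and procollagens, differed by 1.20 (limma adjusted p = 0.0697) and Plau, the urokinase gene, by 1.09 (limma adjusted p = 0.245). The probes of Tll1, a relative of Bmp1, disagreed. The brighter probe, which stands for the gene, differed by -0.67 (limma adjusted p = 0.138). A second was well above background on 0 control and 3 treated arrays, at least 2.46-fold higher with TGF-β1 (limma adjusted p over kept probes 0.0329). This second probe passed the filter only through the treated arrays, so its p is not independent of the filter. The median of the 7 was 0.42, and 2 were called as higher without treated replicate 3, beside 3.86% of all genes.

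**Figure D5:**
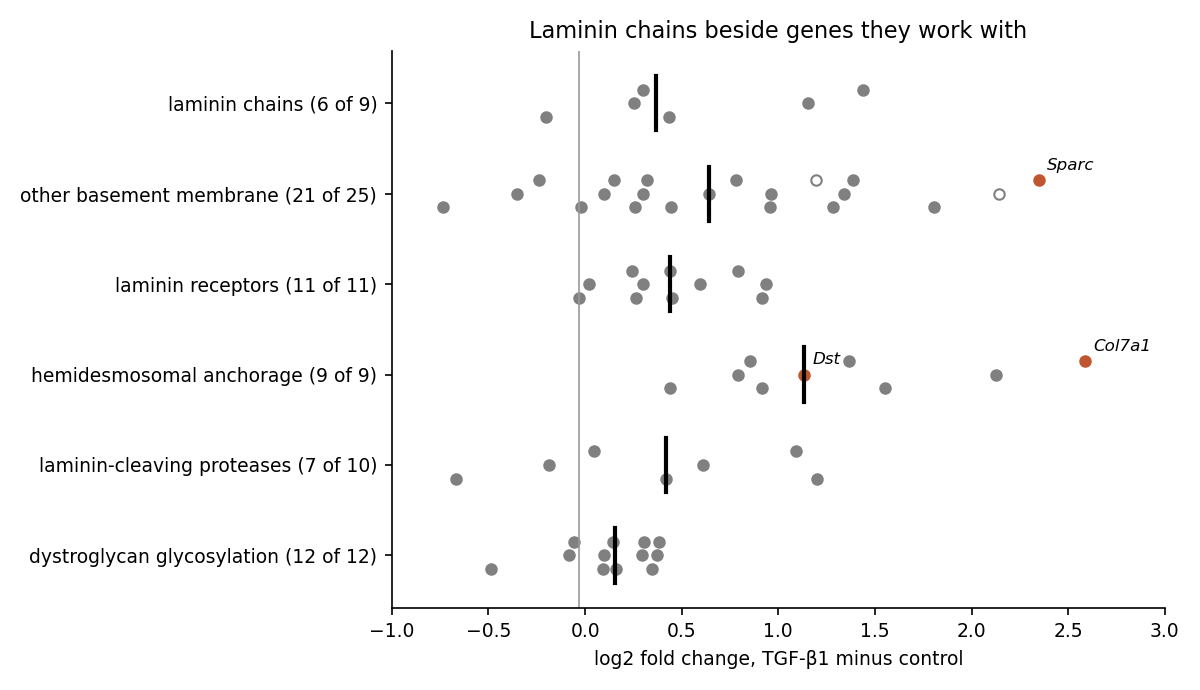
Log2 fold change of each gene tested in 6 lists, with the number tested of those listed. Filled red points were called, open points lacked a measured level on the controls, thick bars are list medians, and the thin line is the median of all genes tested (-0.03), which all 6 list medians exceed.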

How the data were processed

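Per the labels, RNA of 6 cultures was hybridised to 1-colour Agilent arrays and read with Agilent Feature Extraction 11.0.1.1. The files the authors deposited hold a linear intensity per spot, background-subtracted and corrected for trends within the array, with no normalisation between arrays. From these, control spots and spots marked as uneven or outliers were left out (74 to 112 marked per array), spots of 1 probe were averaged, and log2 values of the deposited intensities were normalised by quantiles, the method the study names. Probes carry accessions and no gene name. Through RefSeq, 32991 of 35883 probes with a RefSeq accession (58.3% of all 56599 probes) received a gene symbol, so genes reached through other probes are missing. A probe was kept when well above background on at least 3 of 6 arrays, and a gene was its kept probe with the highest mean signal. Of 16 laminin probes, 11 passed.

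Groups were compared with limma 3.58.1 in R 4.3.3 over 14345 genes, with exact permutation tests for ratios, and the fit was tested on simulated data. As alternatives, arrays were scaled to the 75th percentile, or normexp background correction was used (offset 50, on median spot signals). Others were no filter or a stricter one, the mean of a gene's probes, a trended and robust prior, array weights, the methods' t-test, blocks for replicate number and slide row, and each array left out. Slide row 1 alone, calls without a fold threshold and the gene lists without TGF-β1 replicate 3 were added after seeing the data. The members and gene lists, written from general knowledge, were chosen with earlier results of these data known. Named genes are every member, every gene called in a list and up to 4 further list members with the largest differences. A gene of the TGF-β response list is not reported here. Dag1, Nid1 and the genes of the comparison of replicate 3 were added after their values were seen. Promoter windows from RefSeq were used for 5 of 9 members, and any window of Lama3 was left out. Of Lamb3, 1 further start, whose adjoining window holds 1 Smad box and 61.2% G and C, is not printed.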

Additional observations from a re-analysis of the deposited data

How the results depend on the processing

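Of the values recomputed under the alternatives, 197 kept their direction and their side of the threshold or moved little. Of the others, 12 became stronger, 17 moved more and 1 reversed. Several alternatives changed only the test and so left the log2 fold changes as they were. Under scaling to the 75th percentile Lama3 differed by 0.94, less than 2-fold. The difference of Lamb3 reversed under scaling to the 75th percentile (-0.0065, limma adjusted p = 0.980), where the median of the 6 chains was 0.15 and that of all genes -0.09. Array weights, which gave TGF-β1 replicate 3 the lowest weight, took Lama3 (1.52), Lama5 (0.45), Lamb1 (1.88) and Lamc1 (0.57) past an adjusted p of 0.05, with 2 chains and 807 genes called. The methods' t-test did so without adjustment for Lama3 (1.15) and Lamb1 (1.44), with 2 chains and 388 genes called, and 5 genes were called with adjustment. With slide row 1 alone, chosen after seeing the data, the values were 1.63 for Lama3, 0.52 for Lama5, 2.01 for Lamb1 and 0.68 for Lamc1, the median was 0.60, and 2 chains and 861 genes were called. With the slide row as a block on all 6 arrays, 0 chains and 237 genes were called, and the limma adjusted p was 0.0978 for Lamb1 and 0.102 for Lama3. The pair of arrays in row 2 differed by 0.21 for Lama3 and 0.29 for Lamb1, with no test. The other chains tested were lower in the treated array of row 2, by -0.14 for Lama5, -0.07 for Lamc1, -0.19 for Lamb3 and -0.57 for Lamb2. Without a filter 60 genes were called. Leaving out each array gave 0 to 2 chains and 56 to 709 genes called (74 and 83 without control replicates 1 and 2, 210 without control replicate 3, and 67, 56 and 709 without TGF-β1 replicates 1, 2 and 3), and log2 fold changes of 0.96 to 1.54 for Lama3 and 1.22 to 1.81 for Lamb1. The cause of these shifts was not tested.

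The replicate numbers were not taken to pair the cultures, since the methods name an unpaired t-test. Deviations from the group means correlated at -0.01, 0.33 and -0.05 for same-numbered cultures and at -0.37 to 0.25 for the others. With so few cultures per group these correlations cannot show whether the cultures were paired. With the number as a replicate block, 104 genes and 0 chains were called, and the limma adjusted p was 0.176 for Lamb1 and 0.181 for Lama3.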

Other observations

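The genes whose signals followed Lamb1 most closely over the 6 arrays, each centred on its own mean, were Slc2a4, the insulin-responsive glucose transporter, with a root mean square difference of 0.05 on the log2 scale, Prss23 (0.07), a secreted serine protease, and Ncam1 (0.12), a cell adhesion molecule. For Lama3 they were Nradd (0.08), Glipr1 (0.08) and Plekho1 (0.09). None of these 6 genes was called, and their limma adjusted p ran from 0.0735 to 0.114. This is a description of likeness over 6 arrays.

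Of the other cell type markers, the smooth muscle gene Cnn1 rose by 2.13 on the log2 scale (limma adjusted p = 0.0231), and Tagln differed by 2.00 (limma adjusted p = 0.0735). The probes of Acta2 disagreed, the brightest with a difference of 0.02 (limma adjusted p = 0.960) and a dimmer one with 2.74 (limma adjusted p over kept probes 0.0580). Myh11 and Des were not tested. Of the markers tested for club cells (3), alveolar type 1 cells (5), endothelium (3) and leukocytes (4), limma called 0, beside 1.38% of all genes. An unadjusted p under 0.05 was found for 5 (22.2% of all genes). The methods' t-test called 1 without adjustment (2.17% of all genes as higher). Without treated replicate 3, limma called 1 club cell marker as higher (3.86% of all genes). The endothelial gene Egfl7 had an unadjusted p of 0.0488, and of the club cell genes Scgb1a1 differed by -2.27 (limma adjusted p = 0.158) and Scgb3a2 by 1.05 (limma adjusted p = 0.117).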
